A study of Rattus norvegicus with 4 samples.

Results

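Apoe and 6 genes of cholesterol export, synthesis and sterol sensing were followed in the rat soleus, a calf muscle made mostly of slow fibres, after injury and after overload. The genes were taken by name: Apoe, Abca1, Abcg1, Hmgcs1, Sqle, Srebf2 and Insig1. They were selected on their processed signals on these same 4 arrays, so their differences are a description and carry no test. All 7 were found among the 26633 genes and transcripts of the arrays, each through 1 probe printed as 2 spots and assigned by its RefSeq accession.

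The 4 groups were regenerated overloaded muscle, overloaded muscle, regenerated muscle and normal muscle, all of male rats. Rats of the regenerated overloaded and overloaded groups were 18 weeks old, and rats of the regenerated and normal groups 16 weeks. Regenerated muscle was collected 8 weeks after an injection that the labels call CTX (in regeneration work usually cardiotoxin, a snake toxin that destroys fibres). The time since injection is not given for regenerated overloaded muscle, the overloaded muscle is labelled hypertrophied, and the means of loading is not described in the labels. RNA of 6 muscles was mixed in equal amounts for 1 Agilent 1-colour array per group, so n = 1 throughout, the spread between animals cannot be seen and no p-value is given. Strain is not stated in the labels.

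All 4 arrays lay on 1 slide, the overloaded groups in row 2 and the other groups in row 1, so age and slide row cannot be told apart from load. The titles of both injured groups end in L and those of the other groups in R, which the labels do not explain; if the letters mark the side of the body, side cannot be told apart from injury, and whether a pair came from the same rats is not given in the sources used here. Between 67.9% and 70.4% of spots were well above background on the 3 arrays of treated muscle, and 60.2% on the normal array. The normal array also had the higher median local background, 44 intensity units against 32 to 33. Its lowest signal called above background was 28.7, against 16.0 to 18.8 on the others. The lower share is therefore not read as fewer genes expressed in normal muscle. The 8 slow-fibre markers, Myh7, Tnni1 and Mb among them, were well above background on all 4 arrays. Values are given as multiples of the array's 75th percentile signal, which puts the arrays on 1 scale but does not rank genes by abundance. Errors are technical standard errors (SE) from repeated spots on 1 array and leave out all biological spread, and a gene is counted as different at 2-fold or more.

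Cells make cholesterol by the mevalonate pathway, take it up with lipoproteins and pass it on to lipoprotein particles outside the cell. When sterols in the endoplasmic reticulum are low, SREBP2 is released to the nucleus and switches on the synthesis genes, and INSIG1 holds it back when sterols are plentiful. Oxidised sterols activate the nuclear receptors LXR alpha and LXR beta, whose known targets include the exporters ABCA1 and ABCG1 and, in macrophages, apolipoprotein E.

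RefSeq promoter windows, from 250 bases before to 50 bases after an annotated start in rat build GRCr8, were held for 5 of the 7 genes (7 windows, 3 of them of Apoe), not for Abcg1 and Sqle. The windows of Abca1 and Apoe, whose signals moved most among these 5, and of Hmgcs1 and Insig1, which serve sterol synthesis and its restraint, are printed 5′ to 3′ on the gene's strand. Capitals mark every match, on either strand, to GGTNA followed after 5 bases by GGTCA (a spaced pair of half-sites of the kind LXR binds), CACNCCAC (a core of sterol regulatory elements), CCAAT (the box of the factor NF-Y), CACGTG (an E-box) and GGGCGG (a GC box).
Abca1 (chr5:72596424-72596723, minus strand): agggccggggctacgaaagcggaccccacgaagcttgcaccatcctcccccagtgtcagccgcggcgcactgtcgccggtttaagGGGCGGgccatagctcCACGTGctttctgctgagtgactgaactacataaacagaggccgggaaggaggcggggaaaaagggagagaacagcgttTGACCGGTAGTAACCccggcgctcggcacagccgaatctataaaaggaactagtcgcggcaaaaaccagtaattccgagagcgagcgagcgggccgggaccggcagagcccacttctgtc
Apoe (chr1:88484650-88484949, minus strand): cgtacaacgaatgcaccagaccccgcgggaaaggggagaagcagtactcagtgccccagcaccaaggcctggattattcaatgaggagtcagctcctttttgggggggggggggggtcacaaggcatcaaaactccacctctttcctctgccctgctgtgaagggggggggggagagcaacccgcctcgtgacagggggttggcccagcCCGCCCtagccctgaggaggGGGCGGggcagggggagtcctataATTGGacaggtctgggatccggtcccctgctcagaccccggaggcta
Hmgcs1 (chr2:53382054-53382353, plus strand): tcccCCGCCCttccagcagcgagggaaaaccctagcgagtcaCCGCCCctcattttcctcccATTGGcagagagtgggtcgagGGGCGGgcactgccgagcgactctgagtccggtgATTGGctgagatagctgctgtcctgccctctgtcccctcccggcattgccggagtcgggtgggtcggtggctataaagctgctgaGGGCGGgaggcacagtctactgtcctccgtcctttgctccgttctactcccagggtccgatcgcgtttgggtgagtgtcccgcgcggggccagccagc
Insig1 (chr4:8057720-8058019, minus strand): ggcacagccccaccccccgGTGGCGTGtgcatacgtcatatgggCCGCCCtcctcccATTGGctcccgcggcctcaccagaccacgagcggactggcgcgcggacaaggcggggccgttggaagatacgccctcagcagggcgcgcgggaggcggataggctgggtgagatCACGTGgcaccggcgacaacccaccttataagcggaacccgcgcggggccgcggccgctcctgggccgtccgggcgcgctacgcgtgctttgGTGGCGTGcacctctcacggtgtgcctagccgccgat
The half-site pair stood in the Abca1 window, beginning 70 bases before the annotated start and read on the opposite strand, and in 0.230% of all 33469 promoter windows. No other window of these genes held it, which says nothing of sites elsewhere. The sterol element core matched at 2 places in the Insig1 window and in no other window of these genes, against 5.80% of all windows. CCAAT matched at 2 places in the Hmgcs1 window, at 1 in that of Insig1 and at 1 in the Apoe window shown, and 37.5% of all windows held it. GGGCGG was in 33.1% and CACGTG in 6.42% of all windows. The Abca1 window held 1 of each, the Insig1 window also held 1 of each, the Hmgcs1 window held 4 of GGGCGG, and the Apoe window shown held 2 of GGGCGG. A match of letters is a description of the window and not evidence of a bound site.

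Apoe encodes the apolipoprotein that carries lipid between cells and is bound by lipoprotein receptors on cells. Its 2 spots read 52236 and 54965 intensity units in regenerated overloaded muscle, 32987 and 35092 in overloaded muscle, 36117 and 38549 in regenerated muscle, and 7241 and 8001 in normal muscle. The scaled signal was 67.8 in regenerated overloaded, 41.7 in overloaded, 50.4 in regenerated and 11.5 in normal muscle. Normal muscle stood well under the 3 other groups, and regenerated overloaded muscle was the highest. Ranked by level, neighbouring groups differed by more than 2 technical SE, also regenerated and overloaded muscle, the closest pair (0.27 on the log2 scale, technical SE 0.052).

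Abca1 encodes the membrane transporter that loads cholesterol and phospholipid onto lipid-poor apolipoproteins. Its scaled signal was 0.360 in regenerated overloaded, 0.280 in overloaded, 0.246 in regenerated and 0.147 in normal muscle. Normal muscle was again lowest, and overloaded and regenerated muscle differed by under 2 technical SE (0.19 on the log2 scale, technical SE 0.096). On the normal array this probe lay 3.40 times over the lowest signal called above background, the smallest margin among the 7 genes, and its technical SD there was 0.20 on the log2 scale.

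Abcg1 encodes the transporter that passes cholesterol to mature high-density lipoprotein. Its scaled signal was 1.12 in regenerated overloaded, 0.893 in overloaded, 0.744 in regenerated and 0.304 in normal muscle. The order was that of Abca1, and each neighbour differed by more than 2 technical SE. Apoe departed from this order in that regenerated muscle was above overloaded muscle.

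Hmgcs1 encodes the cytosolic HMG-CoA synthase at the entry of the mevalonate pathway. Hmgcs1 had a scaled signal of 3.98 in regenerated overloaded, 4.18 in overloaded, 4.30 in regenerated and 5.09 in normal muscle. Normal muscle was highest, and among the 3 other groups neighbouring levels differed by under 2 technical SE. Across the 4 arrays it ranged 1.28-fold, where the median gene ranged 1.29-fold.

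Sqle encodes squalene epoxidase, the first oxygenation step of sterol synthesis. Sqle measured 0.392 in regenerated overloaded, 0.360 in overloaded, 0.271 in regenerated and 0.248 in normal muscle. Both overloaded groups were above the groups without overload, and within each of these pairs the difference was under 2 technical SE.

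Srebf2 encodes SREBP2 itself. Scaled signals of Srebf2 were 0.897 in regenerated overloaded, 0.775 in overloaded, 0.886 in regenerated and 0.846 in normal muscle. Regenerated overloaded muscle was highest and overloaded muscle lowest, 0.21 apart on the log2 scale (technical SE 0.062). Ranked by level, neighbouring groups differed by under 2 technical SE.

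Insig1 had a scaled signal of 0.422 in regenerated overloaded, 0.471 in overloaded, 0.404 in regenerated and 0.412 in normal muscle. Overloaded muscle was highest, 0.16 on the log2 scale over regenerated overloaded muscle (technical SE 0.077), and the next neighbouring levels differed by under 2 technical SE. Its 2 spots in overloaded muscle were the least alike of any member, 0.27 apart on the log2 scale.

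**Figure D1:**
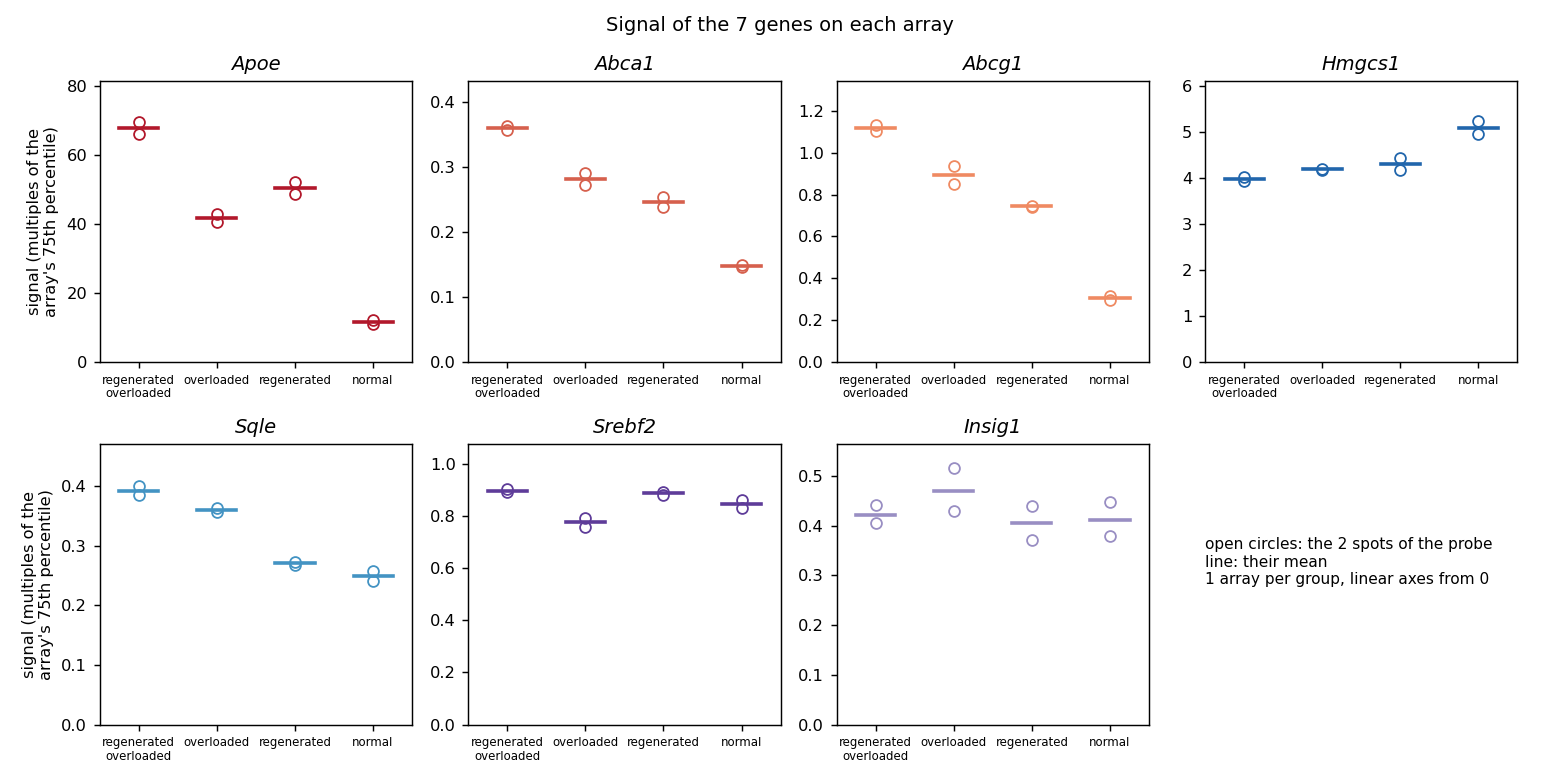
Signal of each of the 7 genes on the 4 arrays (regenerated overloaded, overloaded, regenerated and normal muscle, 1 array each), as multiples of the array's 75th percentile on linear axes from 0; open circles are the 2 spots of the probe and lines their mean. Apoe, Abca1 and Abcg1 are lowest in normal muscle, Sqle is higher in both overloaded groups, and Srebf2 ranges between 0.775 and 0.897.

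Over the 9129 named genes above background on all 4 arrays, 0.153% had a larger range across arrays than Apoe (5.90-fold), 0.833% a larger range than Abcg1 (3.68-fold) and 3.37% a larger range than Abca1 (2.44-fold). For Sqle, with a range of 1.58-fold, 19.6% of genes had a larger one. Srebf2 and Insig1 each ranged 1.16-fold, less than most genes.

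Regenerated against normal muscle shows the state at 8 weeks after CTX. Apoe was 4.39-fold higher in regenerated muscle (log2 difference 2.13, technical SE 0.053), rank 19 from the highest of 16911 measured genes and transcripts. Abcg1 was 2.45-fold higher (1.29, technical SE 0.095). Of the 7 genes, 2 were 2-fold or more higher and none was lower, and over all measured genes 1.92% were 2-fold or more apart, 1.25% higher and 0.662% lower. Since the genes were picked with these values known, nothing is read from the count. Abca1 was 1.67-fold higher (0.74, technical SE 0.16), and at 1.5-fold it made 3 of the 7 genes, where 8% of all genes passed. With normexp background correction and quantile normalization together it was 0.41 on the log2 scale, under 1.5-fold.

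The 4 genes of synthesis and sterol sensing stayed under 2-fold. Their log2 differences between regenerated and normal muscle were -0.24 for Hmgcs1, 0.12 for Sqle, 0.07 for Srebf2 and -0.03 for Insig1. The all-gene median was -0.11, and relative to it the 4 values ran between -0.13 and 0.23. Under the other scalings tried, Hmgcs1 came as near to 0 as -0.096 and Sqle as low as -0.02. With normexp and quantile normalization, Abcg1 was 0.98 on the log2 scale and so just under 2-fold.

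Overloaded against normal muscle addresses load without injury, with the same normal array. The Apoe signal was 3.62-fold higher in overloaded muscle (1.86 on the log2 scale, technical SE 0.053), rank 41 from the highest of 17308. Abcg1 was 2.94-fold higher (1.55, technical SE 0.094). Abca1 was 1.90-fold higher (0.93, technical SE 0.16), and with the authors' deposited series table it was 1.10 on the log2 scale and so past 2-fold. With normexp and quantile normalization the same difference was 0.54, under 1.5-fold. Again 2 of the 7 genes were 2-fold or more higher and none lower, where 3.15% of all measured genes were apart, 2.42% higher and 0.74% lower. At 1.5-fold, 3 of the 7 passed, or 2 where that setting leaves out Abca1, against 11% of all genes in the main setting. With the deposited series table Sqle passed 1.5-fold as well, at 0.71.

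Among the synthesis genes, Sqle was 1.45-fold higher in overloaded than in normal muscle (0.54, technical SE 0.10), and Hmgcs1 differed the other way by -0.28 (technical SE 0.056). Relative to the median of all genes (-0.12) they lay at 0.66 and -0.16. Both depended on the scaling. Sqle was 0.31 with normexp and quantile normalization, and 0.71 with the deposited series table, past 1.5-fold. Hmgcs1 was between -0.14 and -0.11 under 4 alternatives. Insig1 was 0.19 on the log2 scale, and Srebf2 was -0.13, or 0.05 with the deposited series table.

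Regenerated overloaded against regenerated muscle addresses load after injury. None of the 7 genes reached 2-fold, against 1.99% of 17208 measured genes (1.55% higher, 0.442% lower). At 1.5-fold 1 of the 7 passed, Abcg1, against 7.09% of all genes. Abcg1 was only just past it, at 1.504-fold, and at its lowest under the alternatives was 0.53 on the log2 scale, under 1.5-fold. Abca1 at its highest was 0.592, just past 1.5-fold, so which gene passes depends on the scaling. The 3 export and transport genes were all higher in regenerated overloaded muscle, Abcg1 at 0.59, Abca1 at 0.55 and Apoe at 0.43 on the log2 scale (technical SE 0.064, 0.085 and 0.052). Sqle was 1.45-fold higher (0.54, technical SE 0.085), the size it also had after overload of uninjured muscle. Hmgcs1 was -0.11, Srebf2 0.02 and Insig1 0.06.

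Regenerated overloaded against overloaded muscle addresses injury in loaded muscle. Apoe was 1.63-fold higher in regenerated overloaded muscle (0.70, technical SE 0.052), Abca1 1.28-fold and Abcg1 1.25-fold. None of the 7 genes reached 2-fold, where 1.69% of 17493 measured genes did (1.01% higher, 0.68% lower). At 1.5-fold 1 of the 7 passed, Apoe, against 5.34% of all genes. Srebf2 was 0.21, Sqle 0.12, Hmgcs1 -0.07 and Insig1 -0.16 on the log2 scale.

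**Figure D2:**
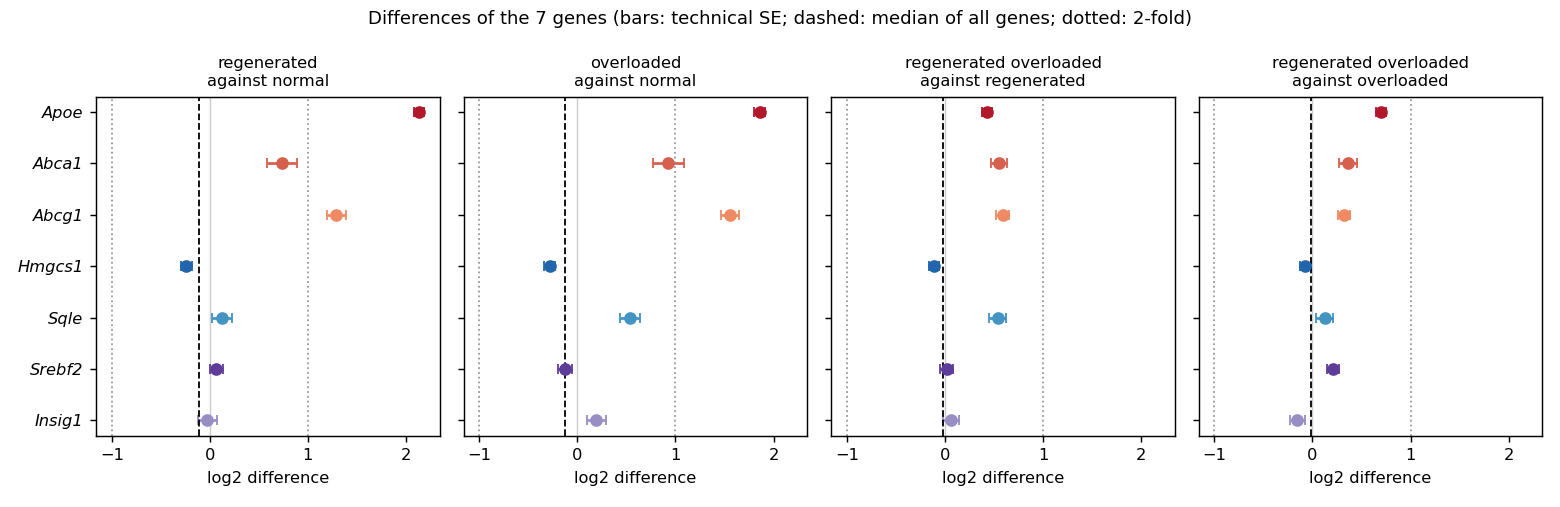
Log2 differences of the 7 genes in the 4 comparisons; bars are technical SE from repeated spots, the dashed line is the all-gene median and dotted lines mark 2-fold. Apoe and Abcg1 pass 2-fold in the comparisons of regenerated and of overloaded with normal muscle, which share the normal array.

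Overload was then compared between injured and uninjured muscle by subtracting the overload difference in normal muscle from that in regenerated muscle, over 14417 genes and transcripts above background on all 4 arrays. The Apoe overload difference was 0.43 in regenerated muscle against 1.86 in normal muscle, a change of -1.43 (technical SE 0.074). It ranked 16 from the lowest of all 14417, of which 0.763% changed 2-fold or more and 0.388% (56) were at -1 or lower. For Abcg1 the overload difference was 0.59 in regenerated muscle against 1.55 in normal muscle, a change of -0.97 (technical SE 0.11). Abca1 had 0.55 against 0.93, a change of -0.38 (technical SE 0.18). Over the settings tried, the Abcg1 change ran from -1.10 to -0.71. The Abca1 change ran from -0.51 to -0.13, the last within its technical SE. Sqle had 0.54 in regenerated and in normal muscle, with no change beyond its technical SE of 0.13. The median over all genes was 0.07. All 4 arrays enter this value, and with 1 array per group it has no test. For Apoe the direction was the same under the 4 alternatives that move its value, and the 5 others leave it as it is. All of them process the same spots of the same 4 arrays again, so none of them adds support.

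**Figure D3:**
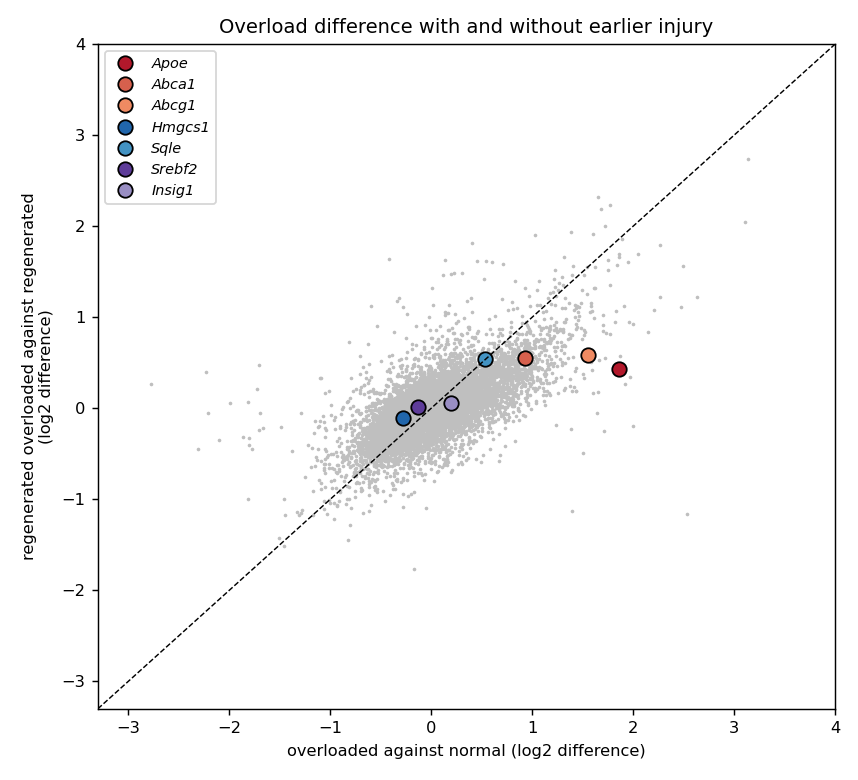
Overload difference in regenerated muscle (vertical, log2) against that in normal muscle (horizontal, log2) for 14414 genes above background on all arrays (grey; 3 more lie outside the axes), with the 7 genes in colour; the dashed line marks equal differences. Apoe (0.43 against 1.86) and Abcg1 (0.59 against 1.55) lie well under the line, and Sqle lies on it (0.54 in both).

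The rest of the pathway was described with 6 lists of 95 genes in all, chosen with earlier results of these arrays known, of which 83 besides the 7 genes were on the arrays. Between regenerated and normal muscle, 2 of 63 measured list genes (3.17%) were 2-fold or more higher, Scarb1 and Scd, and none was lower, where 1.92% of all measured genes were apart. Between overloaded and normal muscle, 4 of 65 (6.15%) were higher, Cyp7b1, Pltp, Scarb1 and Scd, and none was lower, where 3.15% of all measured genes were apart. None of 63 passed 2-fold between regenerated overloaded and regenerated muscle, against 1.99% of all genes. Between regenerated overloaded and overloaded muscle 1 of 65 did (1.54%, against 1.69% of all genes): Apod, an apolipoprotein of the lipocalin family, was 2.08-fold lower (-1.06, technical SE 0.073; -0.95 with normexp and quantile normalization).

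Scarb1 encodes the scavenger receptor that takes up cholesterol from high-density lipoprotein. Its scaled signal was 1.09 in regenerated overloaded, 0.821 in overloaded, 0.736 in regenerated and 0.309 in normal muscle, the same order as Abcg1. It was 2.38-fold higher in regenerated and 2.65-fold higher in overloaded than in normal muscle. Its second probe gave 1.05 and 1.27 on the log2 scale for these comparisons, against 1.25 and 1.41 for the probe read.

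Scd encodes stearoyl-CoA desaturase, an enzyme of unsaturated fatty acid synthesis and an LXR target. Scd measured 0.542 in regenerated overloaded, 0.533 in overloaded, 0.562 in regenerated and 0.171 in normal muscle. The 3 treated groups were near each other and all above normal muscle, so that Scd was 3.29-fold higher in regenerated and 3.12-fold higher in overloaded than in normal muscle. On the log2 scale these differences were 1.72 and 1.64, and at the lowest under the alternatives 1.22 and 1.18. The overload difference of Scd was lower by -1.69 in regenerated than in normal muscle (technical SE 0.17).

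Pltp, the plasma phospholipid transfer protein, was 1.78-fold higher in regenerated than in normal muscle and 2.25-fold higher in overloaded than in normal muscle. Cyp7b1, an oxysterol hydroxylase, was 1.92-fold and 2.55-fold higher in these comparisons, the first past 2-fold (1.07) with the deposited series table. Its difference between overloaded and normal muscle was 1.35 on the log2 scale, or 0.76 with normexp and quantile normalization.

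Of the 13 measured genes of the list of LXR and its targets, 3 were 2-fold or more higher between regenerated and normal muscle, against 1.92% of all measured genes apart. Without Apoe, Abcg1 and Abca1, which were chosen on these values, the count was 1 of 10. Between overloaded and normal muscle 4 of 13 were higher, or 2 of 10 without them, against 3.15% of all genes apart. The list medians were 0.31 and 0.32, or 0.17 and 0.27 without the 3 genes, but they include lower bounds for Rxra and Apoc1, which were below background in normal muscle. Over the 11 genes above background on both arrays the medians were 0.40 and 0.80. These 11 still include the 3 genes chosen on these values, so nothing is read from these medians. Medians of all genes were -0.11 and -0.12. The receptor Nr1h3 (LXR alpha) differed by 0.30 and 0.32 in these comparisons and Nr1h2 (LXR beta) by 0.02 and 0.01. Lpcat3, a phospholipid-remodelling enzyme, had the lowest value of the list in both, -0.14 and -0.17.

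Of the cholesterol synthesis list, 19 genes were measured. None of the 19 was 2-fold apart in any of the 4 comparisons. The list median was -0.10 between regenerated and normal muscle, 0.05 between overloaded and normal muscle, 0.12 between regenerated overloaded and regenerated muscle, and -0.05 between regenerated overloaded and overloaded muscle. In overloaded against normal muscle the list ran from -0.41 for Fdps, farnesyl diphosphate synthase, to 0.54 for Sqle. In regenerated against normal muscle it ran from -0.74 for Sc5d, a late sterol desaturase (technical SE 0.32), to 0.33 for Dhcr7, the last reductase of the pathway.

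In the list of SREBP control no gene reached 2-fold in any of the comparisons. Srebf1 lay between -0.08 and 0.21 and Scap, the escort protein of SREBP, between -0.09 and 0.34.

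Of the other apolipoproteins, 8 were measured in the comparison of regenerated with normal muscle, and their median was 0.04. They ran from -0.62 for Apod to at least 0.30 for Apoc2, which like Apoa5 and Apoc1 was below background in normal muscle and so has only a bound, against 2.13 for Apoe. In overloaded against normal muscle the 8 had a median of -0.02. Of the receptors, Lrp1, which binds apolipoprotein E, was 1.70-fold higher in regenerated and 1.62-fold higher in overloaded than in normal muscle, and Vldlr differed by -0.20 and -0.07 on the log2 scale. Lpl, lipoprotein lipase, was lower in all 4 comparisons, between -0.53 and -0.39 (10 spots, technical SE 0.02).

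**Figure D4:**
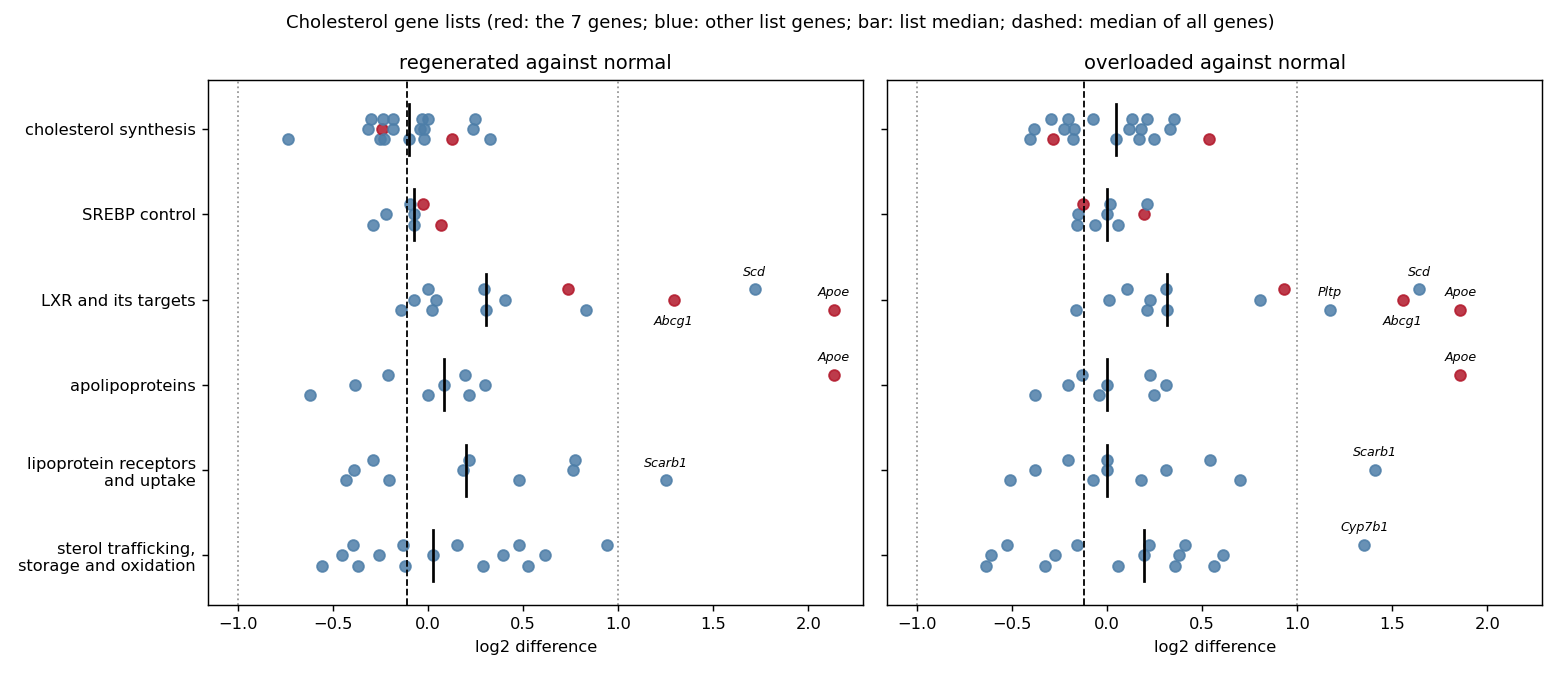
Log2 differences of measured genes of the 6 cholesterol lists in regenerated against normal muscle (left) and overloaded against normal muscle (right); red points are the 7 genes, blue points other list genes, bars list medians, the dashed line the median of all genes and dotted lines 2-fold. Genes past 2-fold are named, and all of them lie on the higher side.

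Macrophages, adipocytes, Schwann cells and fibroblasts can each express genes of these lists, and in mixed RNA more cells of a type and more RNA per cell cannot be told apart. All 15 macrophage markers were above background on at least 3 arrays, and their summed scaled signal was 104 in regenerated overloaded, 95.0 in overloaded, 86.3 in regenerated and 54.7 in normal muscle. Their median was 0.63 between regenerated and normal muscle, with 3 of 15 past 2-fold, and 0.76 between overloaded and normal muscle, also with 3 of 15, where 1.92% and 3.15% of all measured genes were past it. The list ran from -0.25 for Itgam to 1.22 for Gpnmb in the first comparison, and from -0.47 for Itgam to 1.21 for Adgre1 in the second. Cd68, a lysosomal protein of macrophages, was 1.05 and 1.02 in these comparisons and Lyz2, lysozyme, 0.64 and 0.72, against 2.13 and 1.86 for Apoe. Subtracting overload differences as for Apoe (regenerated minus normal) gave values below 0 for 12 of 14 macrophage markers, with a median of -0.57 and its lowest value, -0.81, for Cd68. Values below 0 were not particular to macrophage markers. They were found for 6 of 6 adipocyte (median -0.37), 5 of 5 Schwann cell (-0.29) and 6 of 6 endothelial markers (-0.11). Fibroblast markers had 3 of 5 below 0 (-0.31), smooth muscle and pericyte markers 3 of 5 (-0.02) and slow-fibre markers 0 of 8 (0.16). The all-gene median was 0.07.

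The adipocyte markers followed another order, with summed signals of 29.7, 22.3, 32.4 and 17.4 in regenerated overloaded, overloaded, regenerated and normal muscle. Cfd alone gave 20.1, 14.3, 20.5 and 9.36 of these sums. The mean log2 level of the adipocyte markers put overloaded muscle last (-0.59, -1.03, -0.19 and -0.91). Of the 7, Lep was below background on every array. Their median was 0.94 between regenerated and normal muscle, with Retn (resistin, 1.51) and Cfd (adipsin, 1.13) past 2-fold, and -0.0036 between overloaded and normal muscle with none past it. Fibroblast markers summed to 92.7, 94.8, 70.0 and 53.7 in the same order of groups, while their mean log2 level put regenerated overloaded muscle first (0.72, 0.43, 0.02 and -0.60). Their median difference was 0.30 between regenerated and normal muscle, with 1 of 7 past 2-fold (1.92% of all measured genes). It was 0.76 between overloaded and normal muscle, with 3 of 7 (3.15% of all genes). Between regenerated overloaded and regenerated muscle it was 0.51, with 2 of 7 (1.99% of all genes). All 7 were positive in each of these comparisons. Between regenerated overloaded and overloaded muscle it was 0.24, with 5 of 7 positive and none past 2-fold (1.69% of all genes). Schwann cell markers summed to 2.17, 2.83, 2.65 and 2.74, endothelial markers to 13.7, 13.8, 13.2 and 12.7, and markers of smooth muscle and pericytes to 9.70, 8.74, 8.58 and 7.79. Mean log2 levels gave another order for 2 of these lists. They put normal muscle first for Schwann cell markers (-3.73, -3.43, -3.53 and -3.32), of which between 1 and 3 of 8 were below background on each array. For smooth muscle and pericytes they put regenerated muscle last (-0.30, -0.34, -0.40 and -0.36). The slow-fibre markers summed to 2071, 2168, 2221 and 2661. The part of any of these cell types in the differences of Apoe, Abca1 and Abcg1 was not tested.

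By root mean square distance over the 4 centred log2 values, among 9129 named genes above background on all arrays, the 5 genes nearest to Apoe were Aebp1 (0.14), Mcpt9 (0.17), Mcpt8 (0.21), Eln (0.25) and Ccdc80 (0.25). Aebp1 encodes a secreted collagen-binding protein, Eln elastin and Ccdc80 a matrix protein, and Mcpt8 and Mcpt9 belong to a protease family of mast cells and basophils. Aebp1 had a scaled signal of 9.10 in regenerated overloaded, 4.76 in overloaded, 5.17 in regenerated and 1.40 in normal muscle, the order of groups that Apoe showed. Eln was 1.38 between overloaded and normal muscle from its brightest probe, or 0.77 when all its probes were averaged. The 5 genes nearest to Hmgcs1 lay within 0.007 of it: Qars1, Metap1, Mrpl27, Atp5mf and Uqcr10, the last 3 of them genes of mitochondrial proteins. For Abcg1, a likeness looked up after its values were seen, Scarb1 was second among all genes (0.053), after Fndc1 (0.045). With 4 arrays, such likeness describes these arrays alone.

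**Figure D5:**
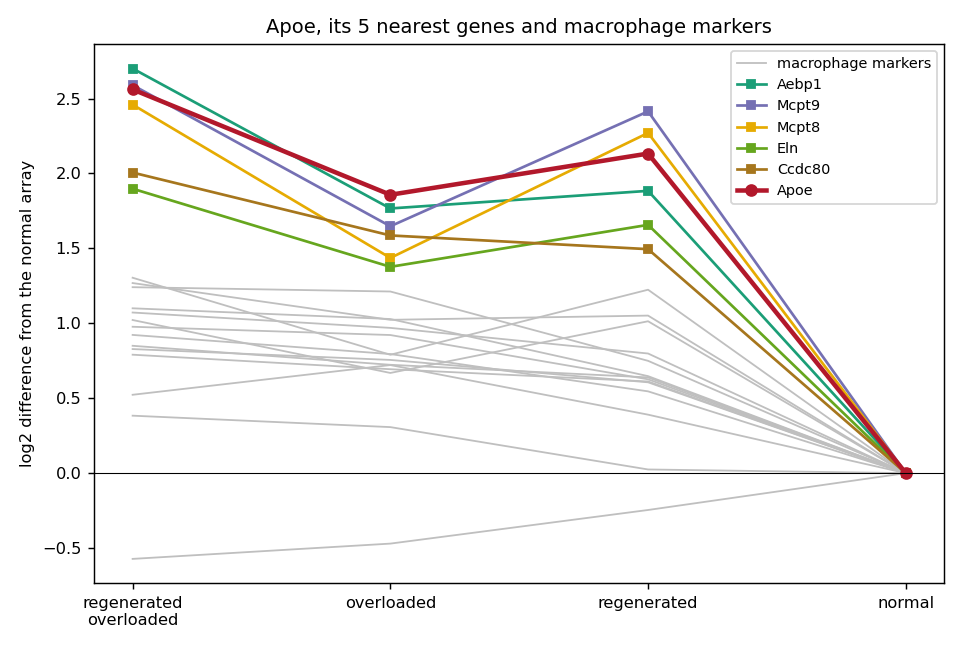
Log2 difference from the normal array for Apoe (red circles), its 5 nearest genes (coloured squares) and 14 macrophage markers above background on all arrays (grey) in regenerated overloaded, overloaded, regenerated and normal muscle; lines only join values of a gene. Apoe reaches 2.13 in regenerated and 1.86 in overloaded muscle, above each of the macrophage markers drawn.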

How the data were processed

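RNA was measured in 4 samples of rat soleus, 1 per group, on Agilent 1-colour arrays; per the labels' protocols, RNA was isolated with Isogen and labelled with Cy3 by the Low Input Quick Amp kit. The deposited scanner files hold, per the file headers, a processed signal for each spot as a fluorescence intensity (background-subtracted and detrended within the array, not scaled between arrays), from Feature Extraction 11.5.1.1 with protocol GE1_1105_Oct12; version 10.10.1.1 stands in the submitters' processing notes. Values of the deposited series table are intensities, each the processed signal multiplied by a constant of its array (2.02, 1.95, 2.10 and 2.14 for regenerated overloaded, overloaded, regenerated and normal); it is linear and not centred, and what set the constant is unknown. Its column medians were 226, 222, 212 and 182.

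Of 58717 probe spots, between 406 and 451 per array carried an outlier flag and were left out, and none was saturated. Signals were divided by the array's 75th percentile, put on the log2 scale and averaged over spots, and the brightest probe stood for a gene. By accession, 18643 of 30367 probes matched a symbol in RefSeq's table of assembly GRCr8; array probes are placed on rn4 per the file headers, and no array coordinates are used. A probe was above background where more of its spots than not were flagged well above background. A gene was measured if either array of the comparison met this; if a single array did, the difference was taken against the lowest signal called above background on the other (or the dim probe's own, if higher), as a lower bound. Technical SE came from the SD between spots, pooled in 20 bins of signal. The number of arrays limits the precision. The steps were tested on simulated data. Python 3.11.15 and R 4.3.3 with limma 3.58.1 were used.

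The 7 genes, the gene lists and the rule for naming genes (the 7 genes, list genes past 2-fold or else the extremes of a list, and the 5 genes nearest to Apoe and to Hmgcs1) were chosen with earlier results of these data known. Nr1h3, Nr1h2, Lrp1, Vldlr, the cell markers, the neighbours of Abcg1 and list genes below background were named outside that rule, for their known roles or after their values were seen. The normexp alternative used the median spot signal and the median local background and was followed by quantile normalization, so it changed both steps at once. Alternatives changed the background correction, scaling, source table, probe rule, dim-probe filter, spots used and fold counted. Some genes of the lists are not reported here.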

Additional observations from a re-analysis of the deposited data

How the results depend on the processing

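No result past 2-fold changed sign under any alternative. The Apoe log2 difference of 2.13 between regenerated and normal muscle was 2.30 with normexp background correction and quantile normalization, 2.28 with quantile normalization, 2.34 with cyclic loess and 2.26 with the deposited series table. Between overloaded and normal muscle 1.86 was 2.09, 2.07, 2.13 and 2.03 under the same 4 settings. Between regenerated overloaded and regenerated muscle 0.43 was 0.52 with cyclic loess. For Apoe, the change in its overload difference (regenerated minus normal), -1.43, was -1.61, -1.57, -1.61 and -1.56 under those 4. The causes were not tested. With normexp and quantile normalization, 1 of the 7 genes (Apoe) in place of 2 was 2-fold apart between regenerated and normal muscle, since Abcg1 was 0.98. Counted at 1.5-fold in the main scaling, 1 of the 7 differed between regenerated overloaded and regenerated muscle (Abcg1), in place of 0. Abcg1 lay so near 1.5-fold there that other scalings put it under. Likewise 1 differed between regenerated overloaded and overloaded muscle (Apoe), in place of 0. Of the synthesis list, 1 gene passed 1.5-fold between regenerated and normal muscle and 1 passed 2-fold without the filter on dim probes, in place of 0.

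The count of all genes past 2-fold was 324 between regenerated and normal muscle (116 with normexp and quantile normalization, 199 with both arrays above background, 2209 with no filter, 1353 at 1.5-fold). It was 546 between overloaded and normal muscle (212 with normexp and quantile normalization, 5698 with no filter, 1907 at 1.5-fold), 342 between regenerated overloaded and regenerated muscle (102, 227, 1460 and 1220 in the order of the first list) and 295 between regenerated overloaded and overloaded muscle (56, 144, 1438 and 935). The median of all genes moved with the scaling. With the deposited table it went from -0.11 to 0.02 between regenerated and normal muscle, and from -0.12 to 0.05 between overloaded and normal muscle. The synthesis list's median shifted equally there, from -0.10 to 0.03 and from 0.05 to 0.22, since that table multiplies each array by a constant. With cyclic loess the list did not follow. Between overloaded and normal muscle the all-gene median rose to -0.05 and the synthesis median fell to -0.06. The signs of some differences near 0 depend on the scaling. Srebf2 between overloaded and normal muscle ran from -0.15 to 0.05 over the settings tried, and Insig1 between regenerated and normal muscle from -0.05 to 0.10. In the other comparisons both genes kept their sign. Abca1 on the normal array, 3.40 times over the lowest signal above background, was the member most limited by signal: its 0.74 between regenerated and normal muscle was 0.41 with normexp and quantile normalization. No paired analysis was possible because each group has 1 array, and for the same reason no array could be left out.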
